A study of Mus musculus with 14 samples.

Results

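The genes described here encode the basement membrane and collagen matrix of the tissue around cells: the nidogens Nid1 and Nid2, the type IV collagen chains Col4a1 and Col4a2, the fibrillar collagen chains Col1a1, Col1a2 and Col3a1, and the matrix-associated proteins Fn1, Sparc and Postn. The 10 symbols were picked as a set with earlier results of these data known. The probe sets were then taken by symbol, as all those of the array that its annotation assigns to one of them. They make up 10 of the 8251 genes and 14 of the 12422 probe sets tested. A probe set is a group of short oligonucleotides on the array that together give 1 value for a transcript. Where a gene has several probe sets, the one brightest on average over the arrays stands for it, and the others are given beside it.

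RNA from dissociated mouse cerebellum was measured on 14 arrays, 1 per sample. Every mouse carried 1 mutant allele of patched, the receptor that restrains hedgehog signalling, on a stock kept by crosses to 129X1/SvJ, and none of the samples comes from wild-type mice. Animals 7 days old gave the granule cell precursors (GCP, n = 4), which divide and become the granule neurons of the cerebellum. Preneoplastic cells (pretumor, n = 5) came from animals 6 weeks old, and tumor cells (tumor, n = 5) from animals aged 10 to 25 weeks with signs of medulloblastoma, a tumor of the cerebellum. Age therefore changed together with stage, and the effects of the 2 cannot be told apart. The labels also mention mice with a Math1-GFP transgene but do not say which arrays, if any, used them. Tissue was digested with papain and DNase, and the cells that collected between the Percoll layers were frozen without flow sorting, so each sample is a mixture of cell types. Whether the samples of a group came from different animals is not stated, so each p-value reflects only how these samples vary, and part of that variation may be technical.

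Basement membranes are thin sheets of matrix that underlie the pia and wrap brain blood vessels. Their frame is a network of laminin and a network of type IV collagen, built mostly from 1 Col4a2 and a pair of Col4a1 chains, and nidogens bridge these networks. Fibrillar collagens, made mainly by fibroblasts of the meninges and vessel walls, form the stiffer matrix outside the basement membrane. Granule cell precursors divide at the surface of the cerebellum, directly beneath the pial basement membrane.

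Array medians ran from 4.11 to 4.39 in intensity, and between 29.1% and 29.8% of probe sets on each array reached an intensity of 16. Values below 16, here called the low band, lie in a narrow range near the lowest intensities of the array. A fold is given against 16, as "at least", where 1 of the group means lies in the low band, and no fold is given where both do. The log2 ratio of the 3′ to the 5′ control probe sets of Gapdh, a sign of RNA quality, was 0.46 and 0.56 on GCP 1 and 2 and -0.018 on GCP 3 and 4. It ran from 0.0056 to 1.08 in pretumor and from 0.15 to 0.42 in tumor.

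Most of the 10 genes were lower after the precursor stage. In pretumor against GCP, 7 of the 10 genes fell (Nid1, Nid2, Col4a1, Col4a2, Col1a2, Col3a1 and Postn) and 0 rose. A gene is said to rise or fall, or to be called, where limma gave it an adjusted p under 0.05 over all 12422 probe sets. Of all probe sets, 2.69% fell and 1.67% rose in this contrast. In tumor against GCP, 6 of the 10 genes fell, the same list without Postn, and 0 rose, against 3.19% and 1.41% of all probe sets. In tumor against pretumor, 0 of the 10 genes passed the test in either direction, and 0 had an unadjusted p under 0.05 by limma. Of all probe sets, 0.789% fell and 0.209% rose there.

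The median log2 difference over the 10 genes was -1.41 for pretumor minus GCP and -1.48 for tumor minus GCP. The medians over all 8251 genes were -0.01 and 0.00. Both contrasts share the GCP arrays, so they are not independent of each other. In pretumor, every array lay below every GCP array in 9 of the 10 genes and 12 of the 14 probe sets, compared with 5.48% of all probe sets. In tumor this held for 4 of the 10 genes and 6 of the 14 probe sets, compared with 4.73% of all probe sets. In these mixed suspensions, fewer cells of a type and less RNA per cell cannot be told apart.

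The count of genes that fell depended on single arrays. In pretumor it was 4 without GCP 3, 5 without any other GCP array or any pretumor array, and 6 without tumor 1, 2, 4 or 5. It was 8 without tumor 3, because all groups share 1 estimate of the spread. No fit with 1 array left out gave the 7 of the full data. Over these fits, 331 to 624 of the 12422 probe sets were called in pretumor in either direction, and 338 to 709 in tumor. In tumor the count of genes was 3 without GCP 2 or GCP 4, and 4 without GCP 3 or tumor 1, 2, 4 or 5. It was 5 without GCP 1, pretumor 2 or pretumor 4, 6 without pretumor 1, 3 or 5, and 9 without tumor 3. With intensities floored at 16, so that the low band carried no differences, Nid2, Col4a1 and Col3a1 were the 3 genes still called in each contrast.

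**Figure D1:**
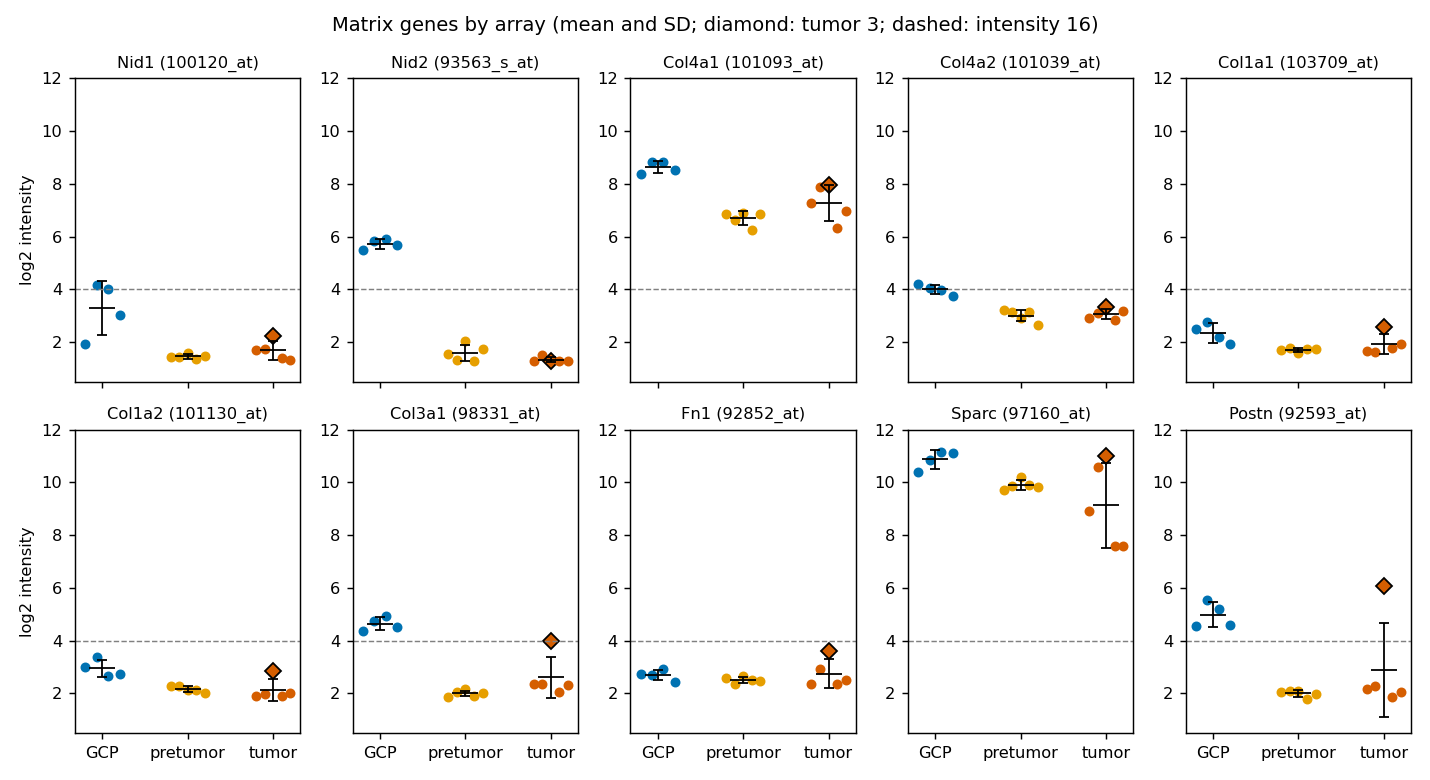
Log2 intensity (vertical axis) of the 10 matrix genes on each of the 14 arrays, by group, with the bar at the group mean and whiskers of 1 SD; the dashed line marks an intensity of 16 and the diamond is tumor 3. Nid2, Col3a1 and Postn stood above the dashed line on all 4 GCP arrays and below it on all 5 pretumor arrays, and tumor 3 was the highest tumor array in 9 of the 10 genes.

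The nidogens link laminin to type IV collagen. The intensity of Nid2 was 45.3, 56.6, 60.8 and 51.0 on the 4 GCP arrays. It lay between 2.46 and 4.10 on the 5 pretumor arrays and between 2.16 and 2.84 on the 5 tumor arrays. Nid2 was thus above the low band only in GCP, and neither later group overlapped it. The log2 mean was 5.73 ± 0.19 (SD, n = 4) in GCP, 1.59 ± 0.31 (n = 5) in pretumor and 1.34 ± 0.09 (n = 5) in tumor. Nid2 was at least 3.32-fold lower in pretumor (log2 difference -4.14, SE 0.14, limma adjusted p = 2.51e-08) and at least 3.32-fold lower in tumor (-4.39, SE 0.14, adjusted p = 1.26e-08). Each bound is the GCP mean against an intensity of 16, and for that reason it is the same number in both. The fitted log2 differences reach into the low band and depend on the floor there, so only the bound measures size. Its probe set, 93563_s_at, carries a suffix that Affymetrix gave to probes shared between similar transcripts. Pretumor and tumor did not differ beyond their spread (adjusted p = 0.520).

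Nid1, its paralog, was dim throughout. The GCP arrays read 3.87, 18.2, 16.2 and 8.15, so only GCP 2 and GCP 3 left the low band. Pretumor arrays ran from 2.59 to 3.03, and tumor arrays from 2.53 to 4.66. Every pretumor array was below every GCP array, while tumor 3, at 4.66, overlapped GCP 1. Nid1 fell by 1.83 in log2 intensity in pretumor (SE 0.37, adjusted p = 0.0167) and by 1.60 in tumor (SE 0.37, adjusted p = 0.0310). The pretumor call ended without GCP 3 (adjusted p = 0.0557). The tumor call ended when GCP 2, 3 or 4 or tumor 1, 2, 4 or 5 was left out, with adjusted p from 0.0554 to 0.0991.

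Col4a1, the chain that supplies most of the type IV collagen network, was above the low band on every array. Its intensity was 334, 460, 454 and 370 on the GCP arrays. The pretumor arrays read 115, 98.3, 121, 77.2 and 117, and the tumor arrays 155, 235, 247, 79.9 and 127. Neither later group overlapped GCP, and the tumor arrays spread around and above the pretumor arrays. The log2 mean was 8.65 ± 0.23 (n = 4) in GCP, 6.71 ± 0.27 (n = 5) in pretumor and 7.28 ± 0.67 (n = 5) in tumor. Col4a1 was 3.84-fold lower in pretumor (log2 difference -1.94, SE 0.29, adjusted p = 0.00297) and 2.58-fold lower in tumor (-1.36, SE 0.29, adjusted p = 0.0206). The tumor call ended without GCP 2, GCP 3 or GCP 4, with adjusted p from 0.0515 to 0.0664. Tumor minus pretumor was 0.58 (SE 0.28, adjusted p = 0.463).

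Col4a2, the partner chain, was close to the limit of the low band in GCP, at 18.3, 16.7, 15.9 and 13.6. It lay between 6.34 and 9.28 in pretumor and between 7.22 and 10.1 in tumor, so neither later group overlapped GCP. It fell by 0.99 in log2 intensity in pretumor (SE 0.13, adjusted p = 0.00143) and by 0.92 in tumor (SE 0.13, adjusted p = 0.00177). Col4a1 and Col4a2, measured on separate probe sets, fell in both contrasts. The 2 genes lie head to head on mouse chromosome 8: in RefSeq (GRCm38.p6) their windows of 250 bases before to 50 after the start, on opposite strands, share 78 bases. Whether the shared sequence bears on these values was not tested.

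Among the fibrillar collagens, Col3a1, the chain of type III collagen, was the one above the low band in GCP. Probe set 98331_at read 20.5, 26.6, 30.8 and 23.0 on the GCP arrays and between 3.64 and 4.42 on the pretumor arrays. On the tumor arrays it read 5.06, 5.12, 15.8, 4.10 and 4.96. All GCP arrays were above the low band and every later array was below it, with tumor 3 at its edge and 4 tumor arrays close to pretumor. The log2 mean was 4.64 ± 0.25 (n = 4) in GCP, 2.00 ± 0.11 (n = 5) in pretumor and 2.60 ± 0.78 (n = 5) in tumor. Col3a1 was at least 1.56-fold lower in pretumor (log2 difference -2.64, SE 0.32, adjusted p = 0.000722) and in tumor (-2.04, SE 0.32, adjusted p = 0.00345).

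The other Col3a1 probe sets stayed in the low band on all arrays. Probe set 102990_at lay between 3.20 and 5.24 in GCP and was called lower in pretumor (-0.86, adjusted p = 0.00159) and in tumor (-0.81, adjusted p = 0.00170). Probe set 161984_f_at was negative in both contrasts (-0.82 and -0.73) and passed in neither (adjusted p = 0.0948 and 0.137). All 3 probe sets of Col3a1 thus had the same sign. On 102990_at and 161984_f_at, however, every pretumor array lay at the floor of 2.45 set for the fit. Their pretumor differences could therefore not be above 0, and the tumor arrays lay at or near that floor. The shared sign is for that reason no separate evidence.

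Col1a1 and Col1a2, the chains of type I collagen, were in the low band on every array, so no fold is given for either. Col1a2 (101130_at) read 8.03, 10.3, 6.39 and 6.71 in GCP, between 4.06 and 4.84 in pretumor and between 3.69 and 7.26 in tumor. No pretumor array reached a GCP array, while tumor 3, the highest tumor array, lay within the GCP range. Col1a2 fell by 0.78 in log2 intensity in pretumor (SE 0.20, adjusted p = 0.0465) and by 0.82 in tumor (SE 0.20, adjusted p = 0.0353). The pretumor call ended whenever any array other than tumor 3 was left out, with adjusted p from 0.0534 to 0.129. The tumor call ended without GCP 1, 2 or 4, pretumor 2 or 4, or tumor 1, 2, 4 or 5, with adjusted p from 0.0522 to 0.110. The second probe set of Col1a2, 161156_r_at, lay between 2.39 and 3.05 on all arrays and was not called in pretumor (-0.01, adjusted p = 1) or in tumor (-0.10, adjusted p = 0.520).

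Col1a1 (103709_at) lay between 3.85 and 6.90 in GCP, between 3.00 and 3.41 in pretumor and between 3.12 and 5.92 in tumor. It was not called in pretumor (-0.65, SE 0.20, adjusted p = 0.0972) or tumor (-0.43, SE 0.20, adjusted p = 0.316). Without tumor 3 both differences passed (adjusted p = 0.0246 and 0.0421). Its dimmer probe set, 94305_at, was called lower in pretumor (-0.46, adjusted p = 0.00602) and had a log2 difference of -0.26 in tumor (adjusted p = 0.0905). In tumor against pretumor, this was the only one of the 14 probe sets with an unadjusted limma p under 0.05 (log2 difference 0.20, adjusted p = 0.308).

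Promoter sequence from RefSeq (GRCm38.p6) was at hand for 7 of the 10 genes. Those of Nid1, Col1a2 and Col3a1 are shown because these genes were called lower in both later groups and their windows overlap no other member. Each run is the 250 bases before the annotated start on the gene's own strand, 5′ to 3′, and capitals mark matches, on either strand, to GGGCGG (the GC box), CCAAT or TATAAA, motifs that do not overlap here. The Nid1 window lies at chr13:13437352-13437601 on the plus strand, the Col1a2 window at chr6:4505368-4505617 on the plus strand and the Col3a1 window at chr1:45311288-45311537 on the plus strand.
Nid1: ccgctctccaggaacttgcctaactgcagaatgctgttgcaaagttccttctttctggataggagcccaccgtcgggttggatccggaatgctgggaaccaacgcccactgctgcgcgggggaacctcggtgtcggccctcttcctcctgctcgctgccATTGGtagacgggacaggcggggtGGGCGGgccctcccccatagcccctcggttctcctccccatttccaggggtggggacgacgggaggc
Col1a2: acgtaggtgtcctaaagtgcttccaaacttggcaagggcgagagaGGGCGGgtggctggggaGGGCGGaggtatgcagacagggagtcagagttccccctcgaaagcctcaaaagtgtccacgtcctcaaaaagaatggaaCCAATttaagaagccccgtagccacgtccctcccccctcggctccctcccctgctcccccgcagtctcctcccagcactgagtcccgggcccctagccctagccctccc
Col3a1: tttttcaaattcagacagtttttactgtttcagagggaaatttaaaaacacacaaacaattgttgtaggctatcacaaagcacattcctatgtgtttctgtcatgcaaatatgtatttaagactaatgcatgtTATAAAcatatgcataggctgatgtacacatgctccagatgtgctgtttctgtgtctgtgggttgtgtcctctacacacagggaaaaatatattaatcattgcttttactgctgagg
Nid1 holds 1 GC box and 1 CCAAT match, the latter on the opposite strand, with first bases 67 and 91 bases before the start. Col1a2 holds 2 GC boxes, at 205 and 188, and 1 CCAAT match at 109, and Col3a1 holds 1 TATAAA match at 117. Over all 32851 windows of the same length, 32.7% hold GGGCGG, 33.8% CCAAT and 12.4% TATAAA. None of the 3 motifs is in all 3 windows, and each match is a match of letters, not a measured binding site.

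**Figure D2:**
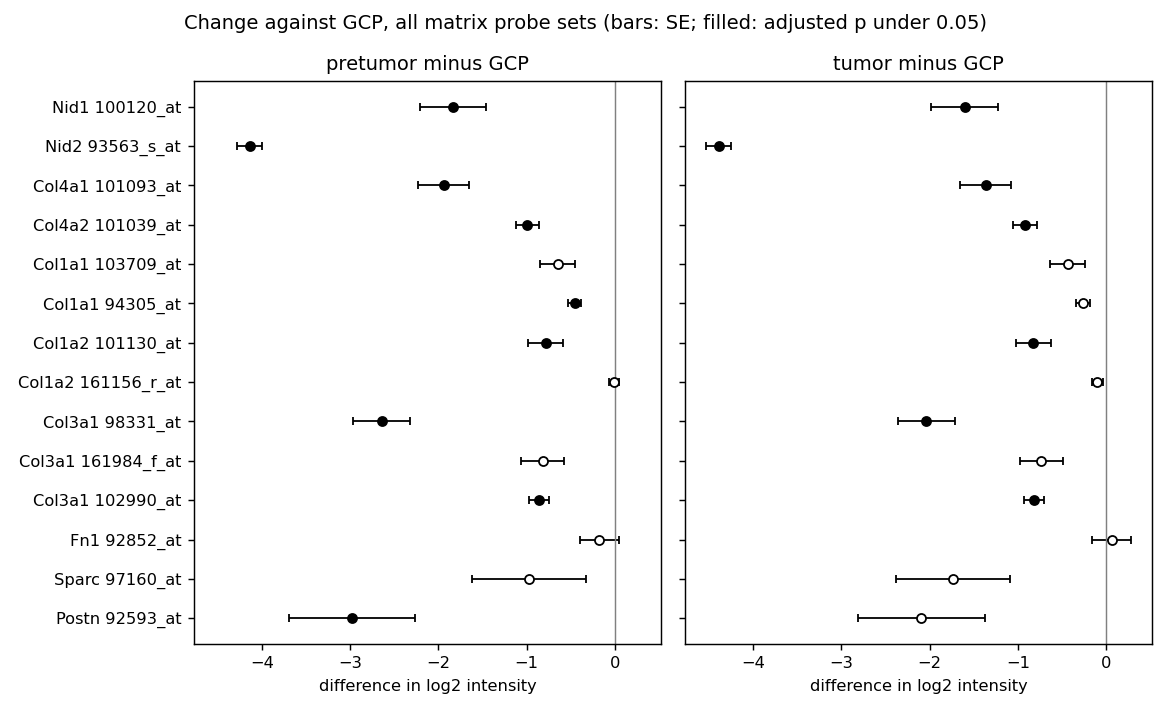
Difference in log2 intensity from GCP (horizontal axis) for all 14 matrix probe sets in pretumor (left) and tumor (right), with bars of 1 SE; filled points have an adjusted p under 0.05. All 9 filled points on the left and all 7 on the right lie below 0; where the later group lies in the low band, as for Nid2 at -4.14 and -4.39, the length of the difference depends on the floor.

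Postn encodes periostin, a matricellular protein that binds collagen. It read 23.6, 46.6, 37.2 and 24.3 on the GCP arrays and between 3.42 and 4.31 on the pretumor arrays. On the tumor arrays it read 4.51, 4.88, 67.4, 3.59 and 4.14. Postn was thus in the low band on all pretumor arrays and on 4 tumor arrays, while tumor 3 was above every GCP array. The log2 mean was 4.98 ± 0.48 (n = 4) in GCP, 2.00 ± 0.14 (n = 5) in pretumor and 2.89 ± 1.79 (n = 5) in tumor.

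Postn was at least 1.97-fold lower in pretumor than in GCP (log2 difference -2.98, SE 0.72, adjusted p = 0.0371). That call ended when any GCP or pretumor array was left out, with adjusted p from 0.0617 to 0.107. In tumor the difference of -2.10 (SE 0.72) did not pass (adjusted p = 0.148). Without tumor 3, the tumor mean was 2.09 ± 0.19 (n = 4) and both contrasts passed, at -2.98 for pretumor (adjusted p = 1.37e-05) and -2.89 for tumor (adjusted p = 1.99e-05).

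Sparc, also called osteonectin, is a secreted collagen-binding protein that glia and vessel cells make in quantity. It was bright on every array, at 1332, 1822, 2273 and 2201 in GCP and 828, 931, 1168, 953 and 900 in pretumor. The tumor arrays read 484, 1549, 2023, 191 and 190. Every pretumor array was below every GCP array, whereas tumor 2 and tumor 3 lay within the GCP range and tumor 1, 4 and 5 below every pretumor array. The log2 mean was 10.87 ± 0.35 (n = 4) in GCP, 9.89 ± 0.18 (n = 5) in pretumor and 9.13 ± 1.62 (n = 5) in tumor.

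With the spread shared over the 3 groups, Sparc was not called in pretumor (-0.98, SE 0.65, adjusted p = 0.562) or tumor (-1.74, SE 0.65, adjusted p = 0.193). Fitted on GCP and pretumor alone, which leaves out the wide tumor spread, the same difference of -0.98 passed (adjusted p = 0.0182). That fit called 689 of all probe sets, against 541 in the fit of all 3 groups, and no longer called Nid1. Without tumor 3 the tumor difference of Sparc was -2.20 (adjusted p = 0.0423).

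Fn1, fibronectin, an adhesive protein that binds integrins and collagen, was the member with no call under any setting tried. It lay between 5.45 and 7.51 in GCP, between 5.15 and 6.26 in pretumor and between 5.07 and 12.2 in tumor, all in the low band. The groups overlapped, and tumor 3 was the highest of all arrays at 12.2. The log2 difference was -0.18 (SE 0.22, adjusted p = 0.833) in pretumor and 0.07 (SE 0.22, adjusted p = 0.998) in tumor.

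**Figure D3:**
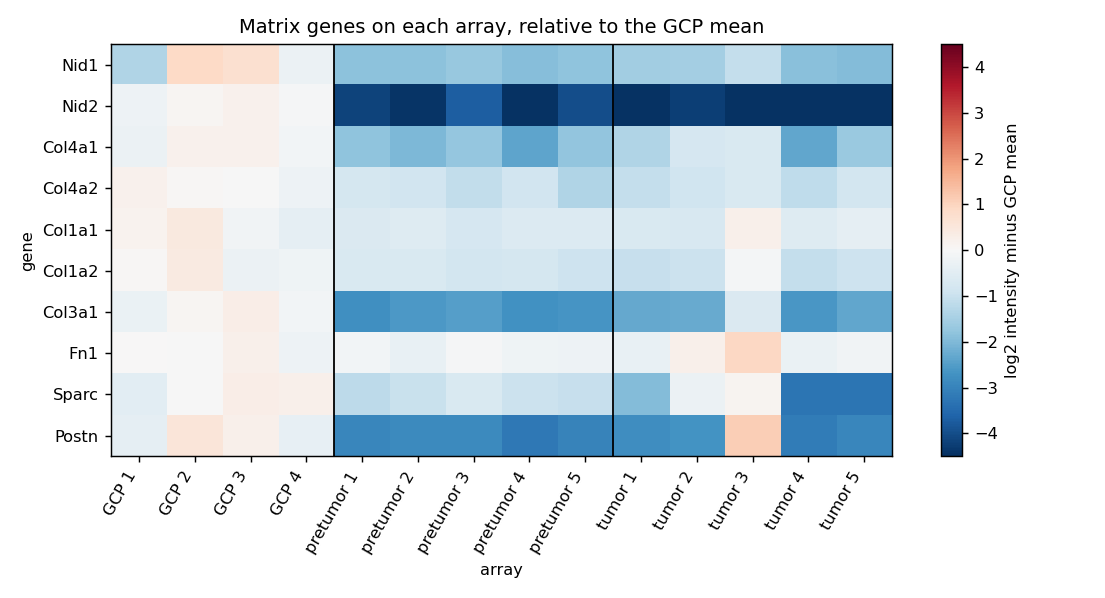
Log2 intensity of each matrix gene on each array minus the mean of the 4 GCP arrays (colour scale; blue is lower, red is higher), with arrays in columns grouped by stage. The 5 pretumor columns are blue for all genes but Fn1, which is near white, and the tumor 3 column is paler than the other tumor columns for most genes and red for Fn1 and Postn.

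The tumor arrays were thus not alike. Tumor 3 was the highest tumor array in 12 of the 14 matrix probe sets and in 9 of the 10 genes, Nid2 being the exception, while it was the highest tumor array in 15.4% of all probe sets. Without tumor 3, all members but Fn1 were called lower in tumor than in GCP. That fit called 709 of all 12422 probe sets in either direction, against 571 with all arrays. Tumor 3 is marked out by its high values in these same genes. Leaving out the highest array of a group lowers its mean and can narrow its spread. The calls made without tumor 3, here and above, are therefore no separate evidence of a fall. Tumor 3 did not stand apart in array median (4.31), in the share of probe sets at or above 16 (29.7%) or in its mean correlation with the other tumor arrays (0.985, against 0.985 to 0.990 over the group).

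The other matrix genes were grouped by role. Of all probe sets, 2.69% fell and 1.67% rose in pretumor against GCP, and 3.19% fell and 1.41% rose in tumor. Of 20 other measured genes of the basement membrane (laminins, perlecan, agrin and others), 2 fell in pretumor, Lama4 and Col15a1, and 2 fell in tumor, Lama4 and Lamb1; 0 rose. Lama4, a laminin chain of vessel basement membranes, had log2 means of 2.70, 1.86 and 1.98 in GCP, pretumor and tumor (adjusted p = 3.21e-05 and 8.08e-05 against GCP). Col15a1, a collagen at the outer face of basement membranes, had means of 2.87, 1.78 and 2.26 (adjusted p = 0.00704 and 0.111). Only 1 of these 20 genes reached a group mean of 16, so the array gives little signal for most of them. The median log2 difference of the list was -0.07 in pretumor and -0.06 in tumor.

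Of 19 other collagen genes, 0 passed in pretumor and 1 fell in tumor, Col5a2, a chain of type V collagen, which forms fibrils with type I (log2 means 4.84, 4.64 and 3.77, adjusted p = 0.833 and 0.0318). The median of these 19 was -0.06 in pretumor and -0.04 in tumor. Of 13 genes that process collagen, 1 rose in both contrasts and 0 fell. It was P4ha1, a subunit of the prolyl hydroxylase that stabilises the collagen helix, with means of 3.79, 5.37 and 5.15 (adjusted p = 0.00978 and 0.0211). P4ha1 was thus higher in both later groups, in which Col4a1, Col4a2, Col1a2 and Col3a1 were called lower.

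Among 39 other matrix proteins, 3 fell in pretumor and 3 in tumor, and 1 rose in tumor. Sparcl1, the closest relative of Sparc and an astrocyte product, had means of 10.83, 9.79 and 8.62 and was 4.63-fold lower in tumor (adjusted p = 0.173 in pretumor and 0.00542 in tumor). Tnc, tenascin C, had means of 3.29, 2.08 and 1.86 (adjusted p = 0.0903 and 0.0448). Ccn1, a secreted integrin ligand, rose, with means of 3.72, 4.18 and 5.32 (adjusted p = 0.689 and 0.0324).

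Of 21 matrix receptors, 1 fell in both contrasts, the laminin-binding integrin chain Itga6 (means 2.26, 1.55 and 1.42, adjusted p = 0.0259 and 0.0102). Itga6 was in the low band on all arrays. Of 22 matrix proteases and their inhibitors, 1 fell in both, Plat, tissue plasminogen activator (means 4.61, 3.61 and 3.72, adjusted p = 0.0245 and 0.0423). In lists of this size, 1 call is close to the share of all probe sets that fell, 2.69% in pretumor and 3.19% in tumor. Of 13 genes of TGF-beta signalling, a pathway known to induce collagen genes, 0 passed in pretumor and 2 rose in tumor. They were the ligand Tgfb2 (means 6.79, 7.36 and 7.85, adjusted p = 0.253 and 0.0236) and the repressor Tgif1 (means 7.86, 8.45 and 9.06, adjusted p = 0.168 and 0.00672).

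Markers of cells that are known to make this matrix were examined beside it. Of 20 endothelial markers, 6 fell and 1 rose (Abcb1a) in pretumor, and 8 fell and 0 rose in tumor. Of all probe sets, 2.69% fell and 1.67% rose in pretumor, and 3.19% fell and 1.41% rose in tumor. The same shares apply to the other marker lists below. Cldn5, the tight junction protein of brain endothelium, had log2 means of 5.80, 4.39 and 2.93 (adjusted p = 0.0377 and 0.000453). The endothelial cadherin Cdh5 had 3.32, 1.66 and 1.63 (adjusted p = 0.000993 and 0.000603), and was in the low band on all arrays. The summed intensity of the list ran from 279 to 360 in GCP, from 208 to 310 in pretumor and from 189 to 311 in tumor, where tumor 3 was the highest. Pecam1, a defining endothelial marker chosen after its values were seen, was in the low band on all arrays.

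Of 14 markers of pericytes and smooth muscle, Foxf2 rose and Notch3 fell in both contrasts. Notch3 was in the low band on all arrays, and Foxf2 was the only 1 of the 14 to reach a group mean of 16. The summed intensity was 57.8 to 59.6 in GCP, 65.6 to 91.6 in pretumor and 91.8 to 181 in tumor, with tumor 3 at 181. Foxf2 alone read 2.64 to 3.86 in GCP, 14.6 to 33.9 in pretumor and 27.5 to 77.3 in tumor. The higher sums of the later groups thus include the rise of Foxf2 and do not describe the list as a whole. On tumor 3 Foxf2 read 53.0, below tumor 1 (55.3) and tumor 4 (77.3). The top place of tumor 3 in the sums therefore comes from other genes of the list. Pdgfrb and Rgs5, which define pericytes and were likewise chosen after their values were seen, were in the low band on all arrays. Of 19 meningeal fibroblast markers, 1 rose (Ptgds) and 2 fell in pretumor, and 1 fell in tumor (Igfbp2). All 19 summed to 6807 to 8349 in GCP, 6059 to 7683 in pretumor and 5985 to 8500 in tumor. These sums overlapped, and tumor 3, at 6495, was not the highest tumor array. The 15 of them on no other marker list summed to 468 to 1030 in GCP, 520 to 732 in pretumor and 81.5 to 547 in tumor. For those 15 tumor 3 was the highest tumor array. Dcn, decorin, a defining fibroblast proteoglycan chosen after its values were seen, read 339, 416, 764 and 511 in GCP, between 68.6 and 146 in pretumor and between 7.72 and 229 in tumor. Dcn was called in neither contrast (limma adjusted p = 0.121 in pretumor and 0.0573 in tumor). The part of these cell types in the matrix differences was not tested.

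Markers of other cells of the suspension also differed between groups. The summed intensity of 17 microglia and macrophage markers was 302 to 663 in GCP, 1021 to 1639 in pretumor and 766 to 2233 in tumor, with 2 genes called higher in both contrasts (Lyz2 and Ctss) and 0 lower, and tumor 3 was the highest array. For 12 astrocyte and Bergmann glia markers it was 10835 to 14893 in GCP, 1922 to 6265 in pretumor and 1116 to 2985 in tumor. Fabp7 alone read 8354 to 11749, 587 to 1194 and 352 to 1539, so it made up most of the GCP sums. In pretumor 1 of the 12 fell (Fabp7) and 1 rose (Aldoc), and in tumor 6 fell and 0 rose. For 7 red blood cell markers the summed intensity was 1934 to 4386 in GCP, 759 to 3430 in pretumor and 28.5 to 403 in tumor. Hba-a1 and Hbb-b2 were called lower in tumor, and the sum on tumor 3 was 37.0. For 12 granule cell precursor markers it was 19278 to 23009, 12025 to 16919 and 13014 to 19062, with Pax6 and Neurod1 called lower in both contrasts. For 8 choroid plexus markers the sum was 697 to 3326 in GCP, 5214 to 14710 in pretumor and 41.2 to 1181 in tumor, with Kl called higher in pretumor. For 10 oligodendrocyte markers it was 200.1 to 324 in GCP, 300 to 780 in pretumor and 139 to 220 in tumor, with Mog, Mag and Mal called higher in pretumor. The choroid plexus sums of pretumor lay above all those of GCP, while the oligodendrocyte sums overlapped. The part of these changes in the matrix differences was not tested either.

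The genes most like the matrix genes across the 14 arrays were sought among 3123 genes with a group mean of at least 16, other than the members. The measure was Pearson's r with the mean of the standardised values of the 6 members above the low band in GCP. Tes, a focal adhesion protein, came first (r = 0.976), followed by Cd93, an endothelial and myeloid receptor (0.970), the spectrin Sptbn1 (0.966), the heme enzyme Alad (0.945) and the zinc finger gene Plagl1 (0.934). These values describe arrays that share the 3 stages, and carry no test. Cd93 had log2 means of 5.40, 2.51 and 2.80 in GCP, pretumor and tumor, an order that the choice by likeness favours.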

How the data were processed

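The authors deposited 1 linear intensity per probe set for each of 14 Affymetrix arrays (12488 probe sets). The sources used here do not give the method of summarising or normalising these intensities. Array medians lay within 0.094 log2 units, under the limit of 0.2 set for centring, so no normalisation was added. The 66 control probe sets were left out. Values were floored at the 10th percentile (2.45), which removes differences between values below it, and taken to log2. Differences between dim values above that floor remain in the fit. Of all values, 70.5% lay below 16, a limit chosen after seeing the data.

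A model of 3 group means was fitted by limma (version 3.58.1, R 4.3.3). Residual degrees of freedom were 11, and the prior added 0.83. Tests were two-sided, with Benjamini-Hochberg adjustment over 12422 probe sets. The procedure was tested on simulated data. Array annotation gave 1 symbol for 10833 probe sets, several for 396 and none for 1193.

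The members and gene lists were chosen with earlier results of these data known. Genes named are all members, up to 3 called genes of the largest change in each other list, and the 5 genes most correlated with the members. Others are marked as chosen after their values were seen. For arrays, precision is limited by their number.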

Additional observations from a re-analysis of the deposited data

Results flagged for a closer look

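A single array stood far from the rest of its group in 5 of the 42 groups of arrays considered. Each probe set of the matrix genes was counted in each group of 4 or 5. The pretumor groups of Col3a1 102990_at and 161984_f_at lay wholly at the floor and could not be flagged. The threshold is passed by chance in about 1 in 20 groups of independent, normally distributed values. These groups share arrays and genes, and many values lie at the floor, so that rate gives no chance level for the count. All 5 flagged groups were tumor groups. The measure is the gap between the extreme array and its nearest neighbour, divided by the range of the group in log2 intensity. For Postn the gap took up 0.895 of the range, with tumor 3 at 67.4 and the other tumor arrays between 3.59 and 4.88. For Col1a2 (101130_at) it was 0.872, with tumor 3 at 7.26, and for Col3a1 (98331_at) it was 0.835, with tumor 3 at 15.8. For Col3a1 (102990_at) with tumor 3 at 2.85 and for Nid2 with tumor 2 at 2.84 it was 1, because the other 4 arrays lay at the floor, and both values are in the low band.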

How the results depend on the processing

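No result changed direction among those called. For the reported setting, 541 probe sets were called in pretumor and 571 in tumor against GCP, and 124 in tumor against pretumor, with 7, 6 and 0 matrix genes. With a floor at 16 the counts were 194, 232 and 32, with 3 and 3 matrix genes against GCP. With each pair of groups fitted alone, 689 were called in pretumor minus GCP, with 7 matrix genes, Sparc taking the place of Nid1. In tumor minus GCP 335 were called, with 3 matrix genes, as Nid1, Col4a1 and Col1a2 were lost. In tumor minus pretumor it was 50. Leaving out 1 array at a time gave 331 to 624, 338 to 709 and 70 to 148 probe sets, with 4 to 8, 3 to 9 and 0 matrix genes. With the GCP arrays averaged in pairs the counts were 168, 198 and 69, and with GCP 1 and 2 left out 298, 310 and 70. With GCP 3 and 4 left out they were 203, 215 and 76, with 4 and 2 matrix genes, and Col3a1 was no longer called in tumor (adjusted p = 0.0602).

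With the replicate number as a block, 383, 436 and 76 probe sets and 5, 4 and 0 matrix genes were called. The block ended the calls of Col1a2 and Postn in pretumor (adjusted p = 0.142 and 0.0738) and of Col1a2 and Nid1 in tumor (0.118 and 0.0545). Same-numbered arrays correlated at 0.332, 0.317, 0.567 and -0.254 for pretumor with GCP, and from -0.332 to -0.0361 for tumor with GCP. Since not every pair was above 0.1, the numbers were not taken to pair the samples. Nid2 in both contrasts, and Col4a1 and Col3a1 (98331_at) in pretumor, stayed called under all 27 alternatives, with the highest adjusted p for Nid2 at 3.33e-05. Signal over background limits Nid1, Fn1 and the type I collagens, whose group means all lay below 16.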

Other observations

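Tumor 3 also carried other matrix genes at higher intensity than the remaining tumor arrays. These genes were chosen after their values were seen, as those at or above 16 on 1 tumor array and at least 2 times its highest neighbour in that group. On tumor 3 this held for 77 of 8251 genes (0.933%) and for 8 of 134 genes on the matrix lists, namely Lama2, Tll1, Ccn2, Lum, Ogn, Vtn, Matn2 and Timp3, beside Postn among the members. On the other tumor arrays it held for between 1 and 30 genes, of which 1 matrix gene on tumor 2 (Mmp3) and 1 on tumor 5 (Lama5).

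Ccn2, a secreted regulator of matrix production, read 1019 on tumor 3 and 72.3 on tumor 2, and between 3.14 and 12.7 on every other array of the study. Matn2, a filament-forming matrix protein, read 341 on tumor 3 and 35.3 on tumor 2, and between 5.01 and 15.4 elsewhere. Timp3, an inhibitor of matrix proteases, read 1291 on tumor 3, 497 on tumor 2 and between 85.9 and 221 on the other tumor arrays. Lum, lumican, a fibroblast proteoglycan, read 139 on tumor 3 and between 10.7 and 38.2 on the other tumor arrays, with GCP between 50.8 and 125. Acta2, the actin of smooth muscle and contractile fibroblasts, read 30.8 on tumor 3 and between 2.06 and 7.92 on the other tumor arrays. These are values of single arrays, with no test.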
